A study of Mus musculus with 12 samples.

Results

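Claudins are the membrane proteins that form the strands of tight junctions, and the 10 described here (Cldn1, Cldn2, Cldn3, Cldn4, Cldn5, Cldn7, Cldn8, Cldn12, Cldn15 and Cldn23) were taken by symbol from the 18514 genes of the raw count table as the claudins of the colon barrier. RNA of mouse colorectal tissue was sequenced in 12 male C57BL/6 mice, bought at 4 weeks of age, with 1 library per mouse and 3 mice per group. Ctrl mice received neither agent and did not swim, and Ctrl_Swim mice (numbered 2 to 4 in the labels) swam daily. Model mice received a single injection of azoxymethane (AOM), a carcinogen, and then 3 cycles of dextran sodium sulfate (DSS), which inflames the colon, in the drinking water. Model_Swim mice received AOM/DSS and swam daily from before the injection to the end. Mice that did not train were placed in shallow water. The tissue is unsorted and holds all of its cell types, and the labels do not say which stretch of the colorectum, or how much tumour, each library holds.

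Tight junctions close the gap between neighbouring epithelial cells, and the claudins in their strands set what may pass through it. Cldn2 and Cldn15 form pores for small cations and water, whereas Cldn1, Cldn3, Cldn4, Cldn5 and Cldn8 are known mainly for sealing the gap. In the colon, Cldn7 is abundant along the sides and base of the cells as well as in the junction, Cldn5 is best known from the endothelium of blood vessels, and Cldn12 and Cldn23 are less studied. Colitis in mice and humans is known for a shift in the balance between pore-forming and sealing claudins.

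All 10 genes passed the filter on low counts, and none of them was at 0 in any library. In RefSeq on GRCm38.p6, the 4 genes on chromosome 5 were Cldn3 at chr5:134986214-134987476 (plus strand), Cldn4 at chr5:134945123-134946934 (minus), Cldn12 at chr5:5505015-5514976 (minus) and Cldn15 at chr5:136967869-136975845 (plus). Chromosome 16 held Cldn1 at chr16:26356645-26371839 (minus), Cldn5 at chr16:18776847-18778262 (plus) and Cldn8 at chr16:88560826-88563183 (minus). Cldn2 lay at chrX:139800808-139811386 (plus), Cldn7 at chr11:69964779-69967886 (plus) and Cldn23 at chr8:35824709-35826559 (minus). Reads were counted over exons. In GENCODE, Cldn3, Cldn4, Cldn5 and Cldn8 each had a single transcript of 1 exon, and Cldn15 had 3 transcripts of 4 to 6 exons. Cldn3 alone shared its position with another gene, the antisense Wbscr25, and because the sources used here do not give the strand setting of the counting, reads of the pair cannot be told apart.

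The 250 bases before the RefSeq start are shown for Cldn15, Cldn4 and Cldn1, the claudin that fell most and the 2 that rose most between Ctrl and Model, 5′ to 3′ on the strand of the gene, with the motifs found by a search of both strands in capitals. The windows are chr5:136967619-136967868 (plus) for Cldn15, chr5:134946935-134947184 (minus) for Cldn4 and chr16:26371840-26372089 (minus) for Cldn1. In GENCODE, Cldn15 starts earlier, at 136966616, so that its whole window lies inside the gene there. The end of this window reaches into an exon of a GENCODE transcript.
Cldn15: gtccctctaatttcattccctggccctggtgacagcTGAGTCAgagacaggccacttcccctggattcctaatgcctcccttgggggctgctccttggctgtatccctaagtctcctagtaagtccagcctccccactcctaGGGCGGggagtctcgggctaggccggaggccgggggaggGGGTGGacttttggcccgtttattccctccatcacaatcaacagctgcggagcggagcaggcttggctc
Cldn4: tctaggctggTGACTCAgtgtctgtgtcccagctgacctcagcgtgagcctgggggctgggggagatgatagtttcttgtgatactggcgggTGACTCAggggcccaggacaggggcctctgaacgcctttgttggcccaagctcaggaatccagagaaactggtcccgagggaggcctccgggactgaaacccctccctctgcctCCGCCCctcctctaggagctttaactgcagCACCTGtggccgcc
Cldn1: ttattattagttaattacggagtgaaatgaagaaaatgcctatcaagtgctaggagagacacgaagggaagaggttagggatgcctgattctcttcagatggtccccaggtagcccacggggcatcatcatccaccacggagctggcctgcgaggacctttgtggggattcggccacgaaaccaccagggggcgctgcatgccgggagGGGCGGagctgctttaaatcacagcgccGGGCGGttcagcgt
The AP-1 letters TGANTCA stood at -214 in Cldn15 and at -240 and -158 in Cldn4, counted from the gene's start to the first base of the match. These 2 claudins, which moved in opposite directions, were the only ones of the 8 members with a promoter entry in RefSeq to hold these letters, and 6.78% of all 32619 promoter windows of this length held them. GC boxes (GGGCGG) stood at -108 in Cldn15, at -44 in Cldn4 and at -42 and -14 in Cldn1, and 33% of all windows held one. The KLF letters CCACCC stood at -69 in Cldn15 (28.2% of all windows), and the E-box CACCTG at -14 in Cldn4 (17.3%). A TATA box (TATAAA) was found among the members in Cldn2 alone, at -35, beside 12.4% of all windows. The GRHL letters AACCNGTT stood in Cldn5 (1.8% of all windows), and the STAT letters TTCNNNGAA in Cldn7 and Cldn12 (7.05%). No member's window held the CDX letters TTTATNG (9.76% of all windows), the HNF4 letters CAAAGTCCA (0.386%) or the TCF/LEF letters ATCAAAG (3.23%). A CDX match whose N is A holds the TATA letters on the other strand, so that the shares of these motifs are not separate. Apart from this, none of the motifs is contained in another. A match describes letters only, and binding was not measured.

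The order of the claudins per unit of length, in FPKM (fragments scaled by gene length and library depth), was stable between mice at its top and bottom and varied in the middle. Cldn7 held rank 1 and Cldn3 rank 2 in all 12 libraries, with mean levels in Ctrl of 362 ± 9.06 FPKM and 293 ± 10.8 FPKM (SD, n = 3), and together they made up 67.3% to 73.9% of the summed FPKM of the 10 claudins. Cldn15 held rank 3 in every library except Model 1, at 130 ± 2.89 FPKM in Ctrl. Cldn2 followed at 52.4 ± 3.23 FPKM in Ctrl and held rank 4 or 5 in every library. Below these came Cldn23 (17.5 ± 1.29 FPKM), Cldn4 (15.3 ± 4.13 FPKM), Cldn12 (14.0 ± 0.302 FPKM), Cldn8 (12.1 ± 1.56 FPKM) and Cldn5 (5.33 ± 1.07 FPKM). Cldn1 was last in all 12 libraries, at 0.356 ± 0.0514 FPKM in Ctrl. In Ctrl, the ranges of Cldn23, Cldn4, Cldn12 and Cldn8 overlapped between neighbours except for Cldn12 and Cldn8, whereas Cldn7, Cldn3, Cldn15 and Cldn2 stood clear of each other. Cldn4 was the member that changed place most, from ranks 5 to 8 in the Ctrl and Ctrl_Swim libraries to rank 3 in Model 1, where it passed Cldn15 and Cldn2.

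**Figure D1:**
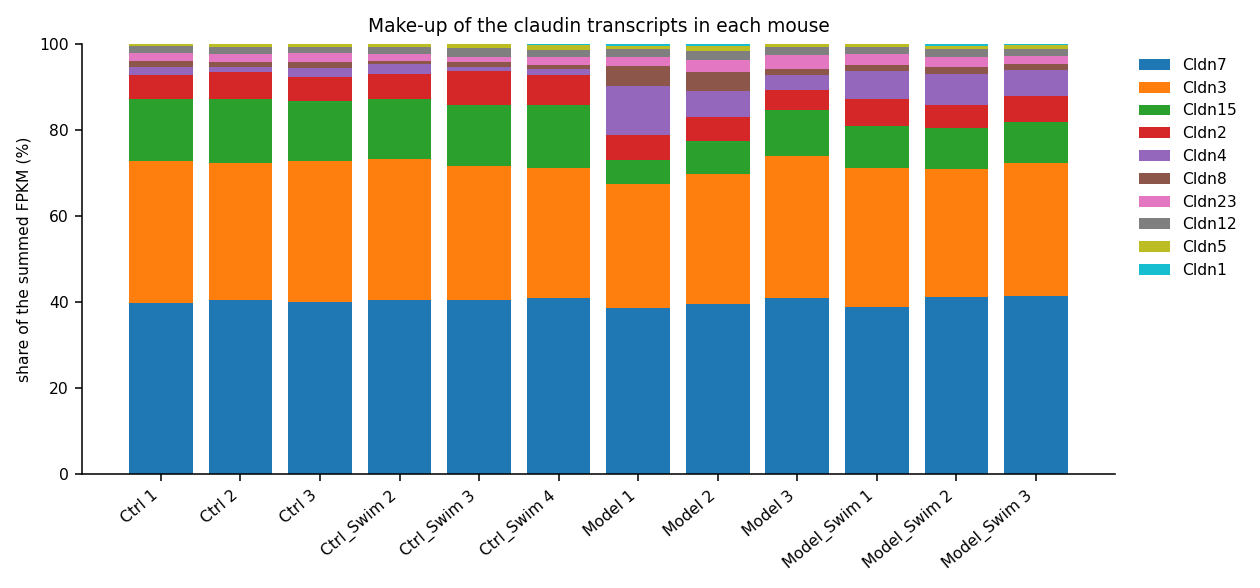
Share of each claudin in the summed FPKM of the 10 members (%, vertical axis) in each of the 12 mice (horizontal axis), as stacked bars. Cldn7 and Cldn3 fill 67.3% to 73.9% of every bar, and Cldn15 shrinks from 13.9% to 14.95% in the Ctrl mice to 5.75%, 7.79% and 10.8% in the Model mice while Cldn4 widens to 11.4%, 5.88% and 3.48%.

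The pore-forming pair, Cldn2 and Cldn15, made up 19.5% to 21.2% of the summed FPKM in Ctrl and 19.9% to 22.0% in Ctrl_Swim. Their share was 11.4%, 13.4% and 15.5% in Model 1, 2 and 3 and 14.9% to 16.0% in Model_Swim. Both AOM/DSS groups lay below both groups without it, with no overlap. Cldn15 showed the same gap, at 13.9% to 14.95% in Ctrl, 5.75% to 10.8% in Model and 9.46% to 9.75% in Model_Swim. The share of Cldn2 overlapped, at 5.58% to 6.27% in Ctrl, 4.68% to 5.66% in Model and 5.41% to 6.20% in Model_Swim. Within the pair, the FPKM ratio of Cldn15 to Cldn2 was 2.39 to 2.58 in Ctrl, 1.82 to 2.47 in Ctrl_Swim, 1.57 to 1.75 in Model_Swim and 1.02, 1.38 and 2.31 in Model 1, 2 and 3. The FPKM ratio of Cldn15 to the sealing Cldn4 separated the mice more widely. It was 6.66 to 12.02 in Ctrl, 6.15 to 15.6 in Ctrl_Swim and 1.32 to 1.53 in Model_Swim, and in Model it was 0.506, 1.32 and 3.10.

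Total counts lay between 17256953 and 19451055 per library, so that depth differed little. Markers of simple epithelium, the lining of the gut, were present in every library: Krt8, a keratin of such cells, had a mean of 4160 CPM (counts scaled by library depth and TMM) and the adhesion protein Epcam 1438 CPM. Libraries stood apart in 3 other lists. Markers of squamous epithelium, which lines the anal canal and not the colon, summed to 60.5 to 90.2 CPM in Ctrl 1 to 3, Ctrl_Swim 3 and Model 3 and to 175 to 2247 CPM in the other 7 libraries. Genes of pancreatic acinar cells summed to 52765 CPM in Model 1 and 25744 CPM in Model 3, against at most 215 CPM elsewhere. Hoxb13, a gene of the most distal colon and rectum, was at 7.58 CPM in Model 3 and at 53.3 to 170 CPM in the other libraries. Calls between Model and Ctrl that were lost without Model 1 or Model 3 are named beside the results.

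The comparison of Model with Ctrl asks what AOM/DSS did to the claudins in mice that did not swim. Cldn1, Cldn4 and Cldn8, all sealing claudins, rose, and Cldn15, Cldn2, Cldn3 and Cldn7 fell. The increases were large (2.22-fold to 7.59-fold), and the 3 decreases other than that of Cldn15 were small (to 0.778 to 0.838 of Ctrl). Thus 3 of 10 claudins were higher, where 16.5% of all 15484 genes tested were, and 4 were lower, where 16.2% of all genes were (edgeR, Benjamini-Hochberg adjusted p under 0.05). With the study's cutoff on the fold change added (over 2 or under 0.5), 3 claudins remained among the higher (6.21% of all genes) and Cldn15 among the lower (1.22%). The mice of both groups did not overlap in 6 claudins, beside 44.2% of all genes. DESeq2 called 7 claudins and limma 3 (Cldn1, Cldn4 and Cldn15), and leaving out Ctrl 1, Ctrl 2, Ctrl 3 or Model 2 left 3 past the test. The median log2 fold change was 0.12 over the 10 claudins and 0.01 over all genes.

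**Figure D2:**
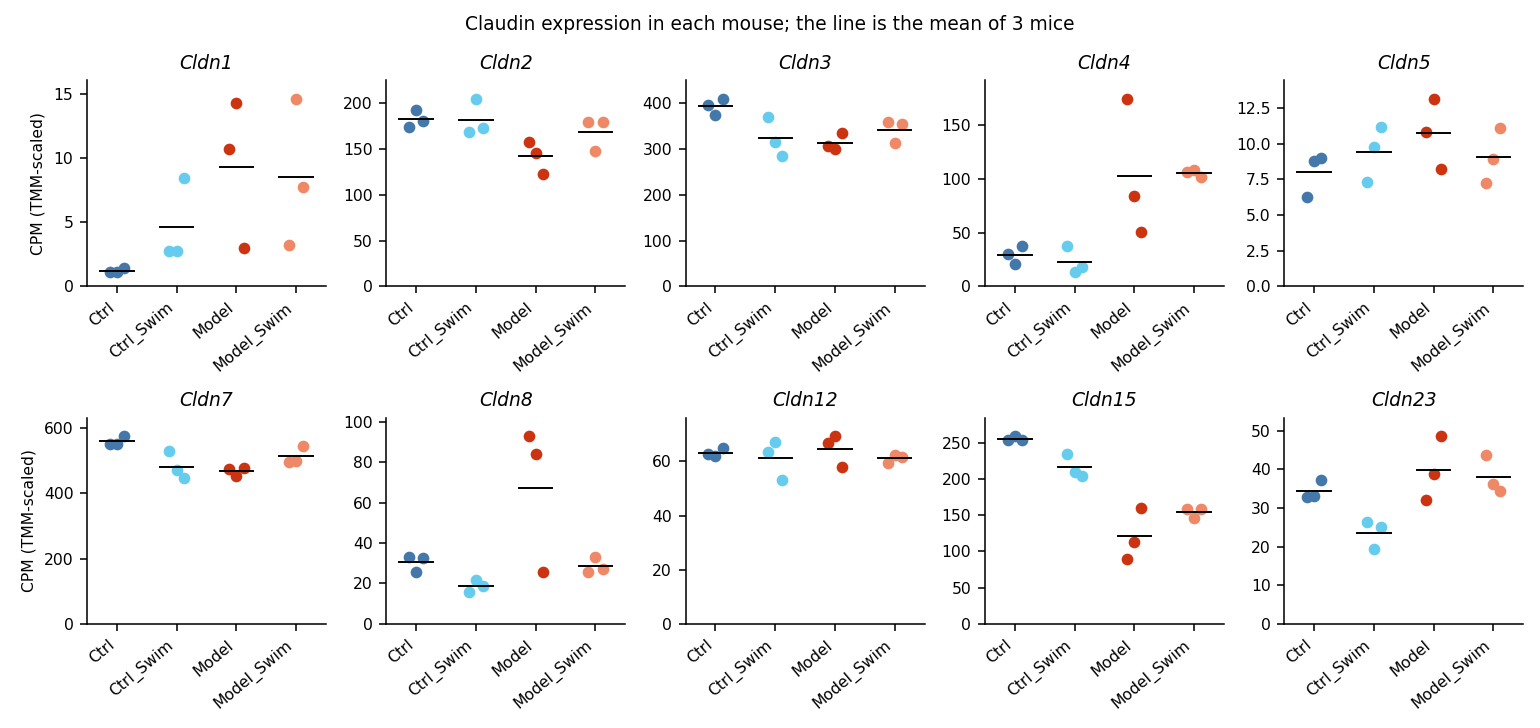
TMM-scaled CPM of each claudin (vertical axes, each from 0) in the 4 groups (horizontal axis), with 1 point per mouse and a line at the mean of 3 mice. Cldn15 is at 254 to 259 CPM in Ctrl and below 161 CPM in every Model and Model_Swim mouse, Cldn4 is higher in all 6 AOM/DSS mice than in the 6 others, and Cldn8 is high in 2 of 3 Model mice only.

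Cldn15, the pore-forming claudin with the higher level, was at 254, 259 and 254 CPM in Ctrl 1, 2 and 3 and at 90.1, 113 and 160 CPM in Model 1, 2 and 3. The Ctrl mice lay close together, every Model mouse lay below them, and Model 3 was nearest. The fall was to 0.474 of Ctrl, a log2 fold change of -1.08 (SE 0.16, adjusted p = 0.00118), and it passed the test in 24 of 25 alternative analyses. It was -0.89 without Model 1 and -1.32 without Model 3, both past the test. In tissue with many cell types, fewer cells that make Cldn15 and less of its RNA per cell cannot be told apart, which holds for every value here. Cldn2, which is found mainly in crypt cells, was at 174, 192 and 181 CPM in Ctrl and at 157, 145 and 123 CPM in Model. The groups did not overlap, with Model 3 lowest, and the log2 fold change was -0.36 (SE 0.11, adjusted p = 0.0289). This small change passed the test in only 8 of 25 alternatives, with log2 fold changes from -0.56 to -0.25 over them, and without Model 3 it was -0.26 (adjusted p = 0.088).

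Cldn1, a sealing claudin that is abundant in skin, was at 1.10, 1.14 and 1.43 CPM in Ctrl (20 to 26 counts) and at 10.7, 14.3 and 2.98 CPM in Model. Every Model mouse was higher, and Model 3 was much closer to Ctrl than the others. The log2 fold change was 2.92 (SE 0.71, adjusted p = 0.0105), and it was 2.51 to 3.35 and past the test without any 1 of the 12 mice. Cldn4 was at 30.2, 21.1 and 37.3 CPM in Ctrl and at 174, 83.8 and 50.6 CPM in Model. Again no mouse overlapped, Model 1 was highest and Model 3 lowest. The log2 fold change was 1.80 (SE 0.45, adjusted p = 0.0119), and without Model 1 it was 1.20 (adjusted p = 0.0344). The call was lost without Ctrl 2 (1.63, adjusted p = 0.0521).

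Cldn8, a sealing claudin of the distal colon and the kidney, was at 33.3, 25.6 and 32.4 CPM in Ctrl and at 92.8, 84.0 and 25.5 CPM in Model. Model 1 and Model 2 were far above Ctrl, but Model 3 was as low as the lowest Ctrl mouse, so that the groups overlapped. The log2 fold change was 1.15 (SE 0.36, adjusted p = 0.0313), and the gene passed the test in 11 of 25 alternatives. Without Model 3 it was 1.55 (adjusted p = 8.26e-05), and without Model 1 it was 0.87 (adjusted p = 0.0982).

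Cldn3, a sealing claudin that ranks just below Cldn7, was at 395, 374 and 409 CPM in Ctrl and at 307, 299 and 334 CPM in Model. Cldn7 was at 551, 551 and 574 CPM in Ctrl and at 475, 452 and 477 CPM in Model. In both genes the Model mice lay below the Ctrl mice and close to each other. The log2 fold change was -0.33 (SE 0.10, adjusted p = 0.0258) for Cldn3 and -0.26 (SE 0.07, adjusted p = 0.0224) for Cldn7. Each passed the test in about as many alternatives as it failed, 14 of 25 for Cldn3 and 13 of 25 for Cldn7. Without Model 1, Cldn3 was at -0.30 (adjusted p = 0.0514).

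The other 3 claudins did not pass the test. Cldn5 was at 6.24 to 9.02 CPM in Ctrl and 8.21 to 13.1 CPM in Model (log2 fold change 0.42, SE 0.24, adjusted p = 0.187). Cldn23 was at 32.7 to 37.3 CPM in Ctrl and 32.2 to 48.5 CPM in Model (log2 fold change 0.21, SE 0.16, adjusted p = 0.309). Cldn12 was the claudin with the least difference, at 62.0 to 64.9 CPM in Ctrl and 58.0 to 69.2 CPM in Model (log2 fold change 0.03, SE 0.09, adjusted p = 0.808). In all 3 the mice of both groups overlapped.

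**Figure D3:**
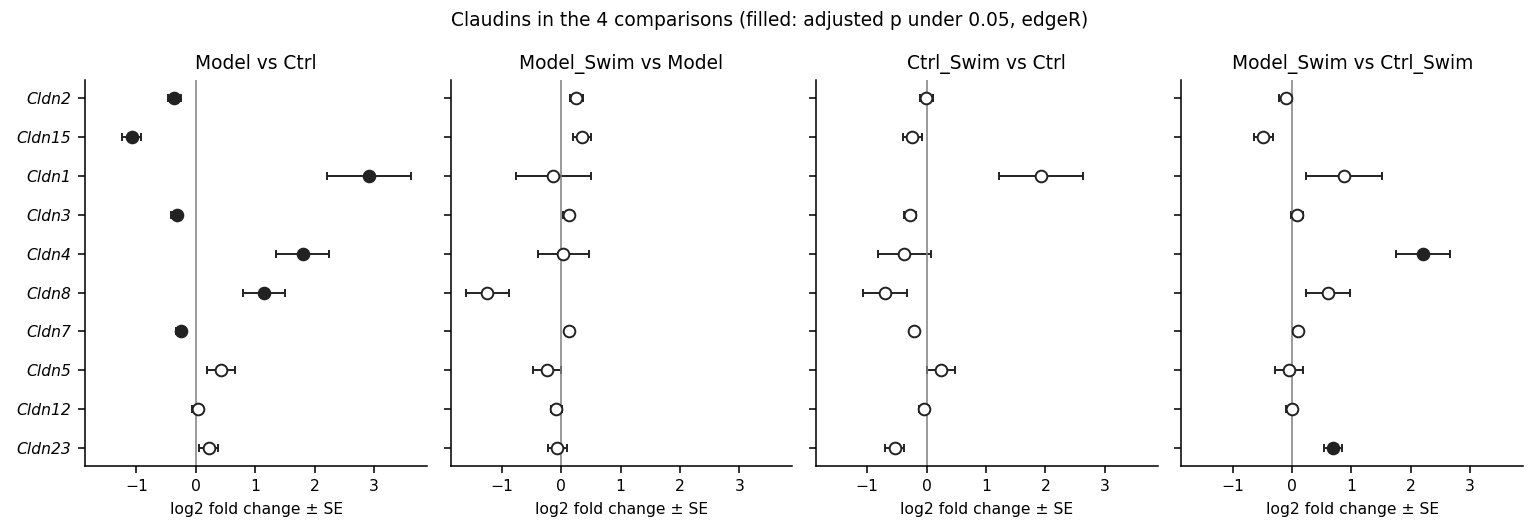
Log2 fold change with its standard error (horizontal axis) of the 10 claudins (vertical axis, pore-forming claudins on top) in the 4 comparisons between groups, filled where the adjusted p was under 0.05. Between Model and Ctrl 7 points are filled, between Model_Swim and Ctrl_Swim those of Cldn4 and Cldn23, and none in the comparisons of swimming mice with mice that did not swim.

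Several marker lists moved along with these changes, and their part in them was not tested. Of 16 squamous markers, 12 were higher in Model and none lower, with sums of 83.2 to 90.2 CPM in Ctrl and of 1230, 2247 and 60.5 CPM in Model 1, 2 and 3. The basal keratin Krt5 was at 0.763 to 1.10 CPM in Ctrl, at 168 and 462 CPM in Model 1 and Model 2 and at 1.15 CPM in Model 3. Cldn1 and Cldn8 were likewise high in Model 1 and Model 2 and low in Model 3. Outside Model, the largest squamous sums were 1025, 1267 and 1205 CPM in Ctrl_Swim 4, Model_Swim 2 and Model_Swim 3. Cldn1 was at 8.48, 14.6 and 7.74 CPM in these mice, above every Ctrl mouse. Cldn8 was at 18.6, 33.1 and 26.9 CPM in them, not above the highest Ctrl mouse (33.3 CPM). In the 5 libraries with few squamous reads, a subset chosen after seeing the data, Model is represented by Model 3 alone, which also stood apart in its acinar and distal genes, so that the values describe this mouse against Ctrl and carry no test. There the log2 fold changes were 1.29 for Cldn1, 0.78 for Cldn4, 0.51 for Cldn23, -0.67 for Cldn15, -0.56 for Cldn2, -0.23 for Cldn3, -0.22 for Cldn7 and -0.25 for Cldn8. With the mean of the squamous list in the fit of all mice, Cldn15 alone passed the test. In that fit the log2 fold changes of Cldn1 (1.18), Cldn4 (1.10) and Cldn8 (0.44) were much smaller than without the list, whereas those of Cldn2 (-0.35) and Cldn7 (-0.22) were nearly as large and that of Cldn3 was -0.22.

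Of 16 markers of simple epithelium, 10 were lower in Model and 1 higher, with sums of 18956 to 21033 CPM in Ctrl and 14655 to 15184 CPM in Model. With their mean in the fit, the log2 fold change was -0.05 for Cldn3, -0.07 for Cldn7 and -1.07 for Cldn15 (adjusted p = 0.0804), and Cldn4 alone passed the test. The mean log2 CPM of the list did not overlap between the groups, at 9.28 to 9.41 in Ctrl and 9.05 to 9.12 in Model. The fit therefore separates the list from the groups poorly, and its values do not tell how much of a change goes with the list. Cldn2 (-0.38) and Cldn8 (1.31) did not pass in this fit although their values were no smaller than without the list, and Cldn1 was at 2.14. Mature colonocyte markers had 2 higher and 3 lower of 16, and their sum was 5240, 7361 and 14170 CPM in Model 1, 2 and 3 and 15555 to 16244 CPM in Ctrl. Car1, a carbonic anhydrase of surface colonocytes, was at 410, 277 and 4731 CPM in Model 1, 2 and 3. Both Car1 and Cldn15 were changed least in Model 3. Krt20, Ceacam1 and Guca2a of the same list were also nearest to Ctrl there. Slc26a3 was not, at 205, 564 and 246 CPM in Model 1, 2 and 3 against 475 to 561 CPM in Ctrl. Aqp8 was nearest to Ctrl in Model 1. Ms4a12, which rose, was farthest from Ctrl in Model 3, at 23.4, 24.4 and 30.0 CPM against 12.5 to 14.1 CPM. The list was mixed, with a positive log2 fold change in 7 of 16 markers. Car1 (adjusted p = 0.0938) and Ceacam1 (adjusted p = 0.096) did not pass the test in edgeR. In Model_Swim, Car1 was at 5932 to 6287 CPM, near the 6385 to 6821 CPM of Ctrl, whereas Cldn15 was at 146 to 159 CPM. Of 15 endothelial markers, 7 were higher in Model, with sums of 494 to 518 CPM in Ctrl and 588 to 657 CPM in Model, beside the values of Cldn5. Of 16 leukocyte markers, 15 were higher, and of 10 goblet cell markers, 6 were lower. The distal gene Hoxb13 was at 170, 168 and 7.58 CPM in Model 1, 2 and 3, and Cldn8 was at 92.8, 84.0 and 25.5 CPM. The acinar sums were high in Model 1 and Model 3 and low in Model 2, and Cldn3 and Cldn7 were by a small margin lowest in Model 2. With the acinar list in the fit, Cldn1 and Cldn15 passed the test. The other 5 did not, with log2 fold changes of similar size, -0.40 for Cldn2, -0.38 for Cldn3, 1.56 for Cldn4, -0.29 for Cldn7 and 1.32 for Cldn8.

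**Figure D4:**
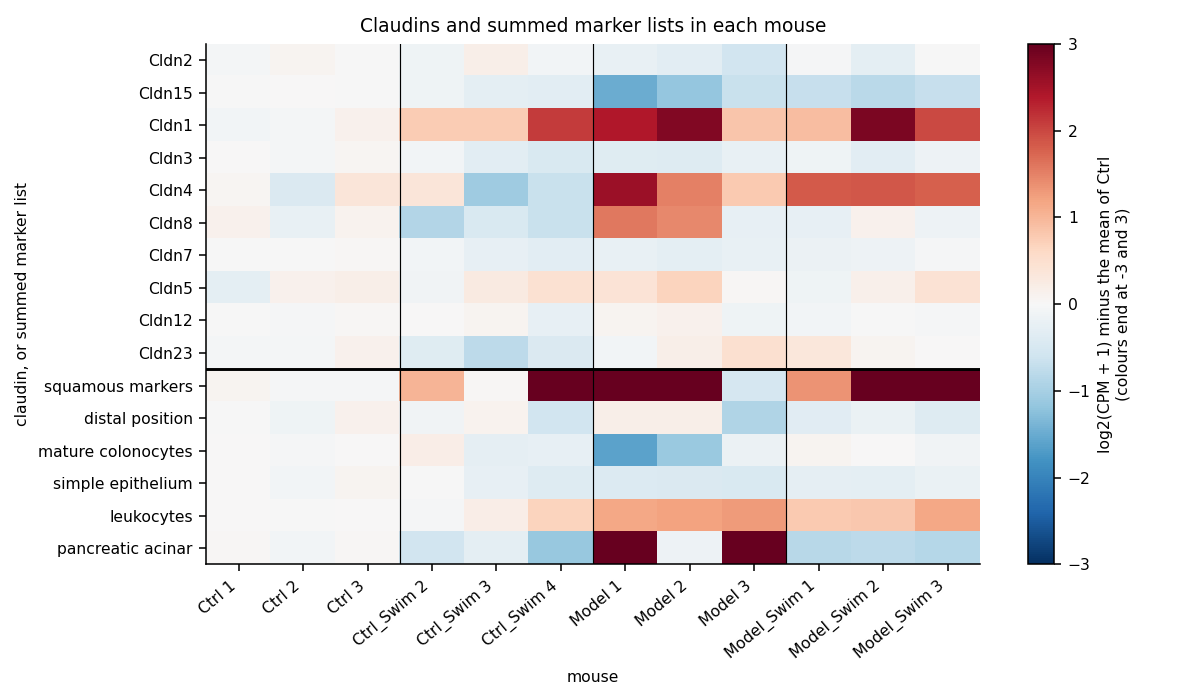
Log2(CPM + 1) minus the mean of the Ctrl mice (colour, ending at -3 and 3) for the 10 claudins and 6 summed marker lists (rows) in the 12 mice (columns). Cldn1 is deepest red in the 5 columns in which the squamous row is deepest red, Cldn15 is blue in all 6 AOM/DSS mice and deepest in Model 1 and Model 2, and Cldn7 and Cldn12 stay near white throughout.

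The comparison of Model_Swim with Model asks whether swimming changed the claudins in mice that received AOM/DSS. No claudin passed the test (edgeR), beside 0.071% of all genes in either direction, and DESeq2 and limma also called 0. An unadjusted p under 0.05 was reached by Cldn8, Cldn2 and Cldn15. The share of all genes under this threshold is not given here or below, so that such counts have no background beside them. Cldn8 was at 25.5, 33.1 and 26.9 CPM in Model_Swim 1, 2 and 3, close to the 25.6 to 33.3 CPM of Ctrl, against 92.8, 84.0 and 25.5 CPM in Model. The groups overlapped through Model 3 only, and the log2 fold change was -1.24 (SE 0.36, adjusted p = 0.211). Cldn15 was at 159, 146 and 159 CPM in Model_Swim, above Model 1 and Model 2 and just below Model 3 (log2 fold change 0.35, SE 0.16, adjusted p = 0.366). Cldn2 was at 179, 148 and 179 CPM in Model_Swim against 123 to 157 CPM in Model (log2 fold change 0.25, SE 0.11, adjusted p = 0.358).

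Without Model 3, Cldn8 (log2 fold change -1.63, adjusted p = 0.000143) and Cldn15 (0.61, adjusted p = 0.00434) both passed the test, and Cldn2 did not. Cldn7 was the single claudin whose mice did not overlap, at 496, 499.6 and 545 CPM in Model_Swim against 452 to 477 CPM in Model, beside 16.9% of all genes (log2 fold change 0.13, SE 0.07, adjusted p = 0.461). Cldn4 was at 106, 108 and 102 CPM in Model_Swim, a narrow range inside the wide one of Model, with a log2 fold change of 0.03 (SE 0.43, adjusted p = 0.987). Cldn1 was at 3.25, 14.6 and 7.74 CPM in Model_Swim, as widely spread as in Model (log2 fold change -0.13, SE 0.63, adjusted p = 0.952). Its lowest mouse, Model_Swim 1, also had the lowest squamous sum of its group, 218 CPM against 1267 and 1205 CPM, and the part of this was not tested. The median over the 10 claudins was -0.02, and over all genes -0.01.

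Ctrl_Swim was compared with Ctrl to ask what swimming did in mice without AOM/DSS. No claudin passed the test in edgeR, beside 0.969% of all genes in either direction, and limma called 0 as well, whereas DESeq2 called Cldn1 (adjusted p = 0.0405) and Cldn23 (adjusted p = 0.0359). In 4 claudins, Cldn1, Cldn3, Cldn7 and Cldn23, the unadjusted p was under 0.05, and in 6 the mice of both groups did not overlap, beside 27.4% of all genes. Cldn23 was at 26.2, 19.5 and 25.1 CPM in Ctrl_Swim 2, 3 and 4 against 32.7, 33.0 and 37.3 CPM in Ctrl. All 3 swimming mice were lower, and the log2 fold change was -0.54 (SE 0.16, adjusted p = 0.135). Cldn8 was at 15.9, 21.7 and 18.6 CPM in Ctrl_Swim, also below every Ctrl mouse (log2 fold change -0.70, SE 0.37, adjusted p = 0.339). It passed the test in 3 of 25 alternatives.

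Cldn3 was at 369, 315 and 285 CPM in Ctrl_Swim (log2 fold change -0.28, SE 0.10, adjusted p = 0.189) and Cldn7 at 528, 470 and 447 CPM (-0.21, SE 0.07, adjusted p = 0.189). Cldn15 was at 234, 209.9 and 204 CPM (-0.24, SE 0.16, adjusted p = 0.44). In these 3 claudins Ctrl_Swim 4 was lowest, Ctrl_Swim 2 was nearest to Ctrl, and no swimming mouse reached the Ctrl range. The sum of the simple epithelium markers had the same order, 19816, 16773 and 15436 CPM in Ctrl_Swim 2, 3 and 4, and its part was not tested. Cldn1 was at 2.74, 2.77 and 8.48 CPM in Ctrl_Swim, with 50 to 166 counts (log2 fold change 1.92, SE 0.70, adjusted p = 0.206). Ctrl_Swim 4, its highest mouse, had a squamous sum of 1025 CPM, and without this mouse the log2 fold change was 1.17 (adjusted p = 0.575). Cldn1 in Ctrl_Swim 3, a library with few squamous reads, was still above all Ctrl mice. Cldn2, with 168, 204 and 172 CPM in Ctrl_Swim, had a log2 fold change of -0.01 (SE 0.11, adjusted p = 0.984). The median was -0.23 over the 10 claudins and 0.00 over all genes.

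Model_Swim was compared with Ctrl_Swim to ask what AOM/DSS did in swimming mice. Cldn4 and Cldn23 rose, so that 2 of 10 claudins were higher beside 3.49% of all genes. Cldn4 alone passed the cutoff on the fold change, beside 0.924%. No claudin fell past the test, and the share of all genes that fell in this comparison is not given here. Cldn4 was at 37.3, 13.1 and 17.8 CPM in Ctrl_Swim and at 106, 108 and 102 CPM in Model_Swim. The Model_Swim mice were nearly equal and far above the others, with a log2 fold change of 2.21 (SE 0.46, adjusted p = 0.0245). Cldn23 was at 19.5 to 26.2 CPM in Ctrl_Swim and at 43.8, 36.1 and 34.5 CPM in Model_Swim (log2 fold change 0.69, SE 0.16, adjusted p = 0.0343). Both calls were lost without Ctrl_Swim 3, Ctrl_Swim 4 or any 1 of the Model_Swim mice, with log2 fold changes of 1.93 to 2.23 for Cldn4 and 0.56 to 0.75 for Cldn23, and that of Cldn23 also without Ctrl 1, Ctrl 2 or Ctrl_Swim 2. In this comparison limma called 2 claudins and DESeq2 3.

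Cldn15 was lower in every Model_Swim mouse (146 to 159 CPM) than in every Ctrl_Swim mouse (204 to 234 CPM), with a log2 fold change of -0.48 (SE 0.16, adjusted p = 0.103) that passed the test in 5 of 24 alternatives, DESeq2 among them (adjusted p = 0.0242). Cldn8 did not overlap either (log2 fold change 0.61, SE 0.37, adjusted p = 0.361). The mice of both groups were thus apart in 4 claudins, Cldn4, Cldn8, Cldn15 and Cldn23, beside 32.4% of all genes. The 2 most abundant claudins had small values here, 0.08 for Cldn3 (SE 0.10, adjusted p = 0.664) and 0.09 for Cldn7 (SE 0.07, adjusted p = 0.501). Cldn1 was at 2.74 to 8.48 CPM in Ctrl_Swim and 3.25 to 14.6 CPM in Model_Swim, and the groups overlapped (log2 fold change 0.87, SE 0.64, adjusted p = 0.462). The median was 0.09 over the claudins and -0.01 over all genes.

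Whether the effect of swimming differed with and without AOM/DSS was tested as an interaction. No claudin passed, as 0% of all genes did in edgeR, limma called 0 claudins, and DESeq2 called Cldn7 (adjusted p = 0.0187). At an unadjusted p under 0.05 there were 3, Cldn7 (difference of log2 fold changes 0.35, SE 0.10, adjusted p = 0.138), Cldn3 (0.41, SE 0.14, adjusted p = 0.159) and Cldn15 (0.59, SE 0.22, adjusted p = 0.191). In each of them the swimming mice were below Ctrl and, after AOM/DSS, above Model in the mean. Without Model 3, Cldn15 (0.84, adjusted p = 0.00699) and Cldn8 passed the test. The changes seen in Model and not in Model_Swim are therefore not shown to differ between mice with and without swimming. The comparisons share their groups, so that Model enters both the first and the second, and their values are not independent.

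Claudins work together with other tight junction proteins, and 32 such partners, all measured, were followed in the same fit. Between Model and Ctrl, 1 was higher and 3 were lower, where 16.5% and 16.2% of all genes were, and the median log2 fold change was -0.03. The angulin Ildr2, which sits at corners where cells meet, rose (1.22, adjusted p = 0.00567). The polarity kinase Prkcz (-0.63, adjusted p = 0.00639), the polarity protein Crb3 (-0.31, adjusted p = 0.024, and 0.065 without Model 1) and Ybx3, a transcription factor that binds the junction scaffold (-0.24, adjusted p = 0.00876), fell. Ocln (occludin, a strand protein) and the scaffold Tjp1 did not pass the test, at -0.03 and 0.18. Epcam, which binds Cldn7, was at -0.23 (adjusted p = 0.0777), close to the value of Cldn7 itself.

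Between Model_Swim and Ctrl_Swim, 4 partners were higher, where 3.49% of all genes were, and none was lower (share of all genes not given here). The 4 were the polarity protein Pard6b (0.67, adjusted p = 0.00539), the adhesion receptor Cxadr (0.41, adjusted p = 0.0145), Tjp1 (0.34, adjusted p = 0.0289) and Ocln (0.30, adjusted p = 0.0418). Leaving out 1 mouse changed the call of Ocln in 8 of 12 fits, that of Tjp1 in 5 and that of Cxadr in 1, and with the epithelium list in the fit Ocln (adjusted p = 0.112) and Tjp1 (adjusted p = 0.0532) did not pass. In both comparisons of swimming with no swimming and in the interaction, no partner passed the test in edgeR. In Model_Swim vs Model, Ctrl_Swim vs Ctrl and the interaction, 4, 11 and 9 partners had an unadjusted p under 0.05 and DESeq2 called 0, 3 and 2. Of the other claudin-family genes, 24 symbols were looked up, 18 genes were in the table and 4 passed the filter on low counts (Cldn10, Cldn14, Cldn34c1 and Cldnd1). None passed the test in any comparison in edgeR or DESeq2, with 2 at an unadjusted p under 0.05 between Model and Ctrl, Cldn10 (1.39, adjusted p = 0.0712) and Cldnd1 (-0.25, adjusted p = 0.0548), and 1 between Model_Swim and Model, Cldn10 (-1.80, adjusted p = 0.23). Cldn18, a claudin of stomach and lung, had at most 6 counts in any library.

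For the 7 claudins that passed the test between Model and Ctrl, the genes with the nearest pattern were sought among 14015 genes, by the root mean square difference of log2 CPM, centred on each gene's mean, over the 12 libraries. Cldn15 was nearest to Aldh1b1, a mitochondrial aldehyde dehydrogenase, at 0.09 and to Cgref1 at 0.11, where the pattern of Cldn15 itself had a size of 0.47 on this scale. Cldn4 was nearest to Vill, a villin-like protein, at 0.36 and to the laminin chain Lama3 at 0.41 (own size 1.14). Cldn1 was nearest to Ndufa4l2 at 0.35 and Aldh3a1 at 0.41 (own size 1.27), and Cldn8 to Robo2 at 0.31 and Nt5e at 0.32 (own size 0.74). For the claudins with small changes, distances were small for many genes. Cldn3 was nearest to Myh14 and Sel1l3, and the nearest other member was Cldn7, at 0.07, with 6 genes nearer. Cldn7 was nearest to Gak and Ext2, and Cldn2 to Slc10a3 and Gadd45gip1. No other member was among the 600 nearest genes of Cldn1, Cldn2, Cldn4, Cldn8 or Cldn15, in which the nearest fellow claudin had between 610 and 2312 genes before it.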

How the data were processed

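The authors deposited raw counts per gene (HTSeq-count) and FPKM values (Cufflinks), made from reads that Trimmomatic had trimmed and HISAT2 had placed on GRCm38.p6, for 18514 genes (versions and strand setting not given in the sources used here). The labels name the mirVana kit for RNA extraction, the study's methods TRIzol. Libraries were made with a stranded mRNA kit. Here edgeR 4.0.16 in R 4.3.3 was run on the counts (TMM scaling, filterByExpr with a minimum count of 10, quasi-likelihood fit of all 12 libraries, two-sided tests, Benjamini-Hochberg adjustment over 15484 genes within each comparison). CPM are TMM-scaled. DESeq2 1.42.0 and limma 3.58.1 on log2(FPKM + 1) were alternatives, beside other filters, covariates, subsets of mice and a replicate block. P-values measure the spread between single mice. Library pairs within a group differed beyond counting noise, and the code was tested on simulated data. The members, the lists of partners and markers and the alternatives were chosen with earlier results of these data known. Named were the 10 members, the partners with the largest changes past the test, the 2 nearest genes in pattern for each changed member and abundant markers. Cldn10, Cldn18 and Cldnd1 were added after their values were seen. Sequences and positions are from RefSeq (GRCm38.p6) and exons from GENCODE. Cldn8 and Cldn23 have no promoter entry there. Protein features were not analysed here.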

Additional observations from a re-analysis of the deposited data

How the results depend on the processing

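With 3 mice per group, small changes were at the edge of what could be called. For Model vs Ctrl, 7 claudins and 4 tight junction partners passed the test. With limma on FPKM (3 settings) these were 3 claudins and 9, 9 and 7 partners, with the acinar covariate 2 and 1, with the epithelium covariate 1 and 0, with the squamous covariate 1 and 1, and with the cutoff on the fold change 4 and 1. A fit of only the groups compared gave 4 claudins, and DESeq2 7 partners. The 5 libraries with few squamous reads, a choice made after seeing the data, leave 1 Model and 1 Ctrl_Swim mouse. Counts past the test are therefore not given for them, and Cldn8 (-0.25) and Cldn12 (-0.12) had the opposite sign there. Leaving out 1 mouse gave 3 to 7 claudins (3 without Ctrl 1, Ctrl 2, Ctrl 3 or Model 2) and 3 to 7 partners. For Model_Swim vs Model, with 0 of each, leaving out 1 mouse gave 0 to 2 claudins and 0 to 3 partners, above 0 without Model 3 alone, and leaving out Model 1 and Model 3 together gave 2 and 1. Model 2 is then the only Model mouse in all such fits and is assumed to vary like the other groups, so that the counts say little about Model. For Ctrl_Swim vs Ctrl, with 0 of each, DESeq2 gave 2 and 3 and the groups compared alone 1 and 2. Leaving out Model 1 and Model 3 gave 2 and 3, and leaving out 1 mouse 0 to 1 of each. For Model_Swim vs Ctrl_Swim, with 2 claudins and 4 partners, the epithelium covariate gave 1 and 2, the cutoff on the fold change 1 and 0, Model 1 and Model 3 left out 4 and 9, the groups compared alone 4 claudins, and leaving out 1 mouse 0 to 4 claudins and 1 to 6 partners. For the interaction, with 0 of each, DESeq2 gave 1 and 2, Model 1 and Model 3 left out 1 and 2, and leaving out 1 mouse 0 to 2 claudins and 0 to 1 partners. Fold changes of single genes were counted for all claudins between Model and Ctrl. Elsewhere only claudins with an unadjusted p under 0.05 were counted, and of the partners only those past the test. Under the alternatives, 614 of these values kept direction and side of the threshold. Another 124 no longer passed the test, 17 newly passed it and 2 changed sign. Some claudins left out of this count also changed sign over the alternatives, and others did not. Cldn4 ranged from -0.67 to 0.64 for Model_Swim vs Model and from -1.15 to 0.66 for Ctrl_Swim vs Ctrl. Apart from what these settings themselves leave out, the cause was not tested.

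The replicate numbers of the titles are not stated to pair mice. Deviations from the group means correlated between -0.26 and 0.56 in 15 pairs of the same number, over 0.1 in 4 of them. In the 39 pairs of different number between groups they correlated between -0.56 and 0.45. With the replicate block, 5 claudins passed the test for Model vs Ctrl, and 0 claudins and 0 partners for Model_Swim vs Ctrl_Swim.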
